A study of Mus musculus with 3 samples.

Results

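The peaks described here are sites in mouse leukaemia cells where the H3K4me3 peak scored at the top of its list while the H3K27ac peak on the same site scored low. Members were chosen by the deposited scores of both lists. A member was any H3K4me3 peak with a score of 3100 or more that shared at least 1 bp with an H3K27ac peak, where the highest score among all H3K27ac peaks it touched was below 500. There were 454 such peaks among 9117 H3K4me3 peaks scoring 3100 or more and among 18142 H3K4me3 peaks in all. They made up 4.98% of the ceiling peaks (exact 95% binomial interval 4.54 to 5.45%), a share that the rule itself sets. They are called weakly acetylated ceiling peaks below.

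The data came from ChIP-seq, which sequences the DNA bound to an immunoprecipitated protein, in cultured precursor B-cell acute lymphoblastic leukaemia cells of the mouse. The cells are driven by Bcr-Abl, a fusion kinase that is always active, and they were neither stimulated nor treated. The groups were 1 library for H3K4me3 (histone H3 trimethylated at lysine 4), 1 for H3K27ac (histone H3 acetylated at lysine 27) and 1 with control immunoglobulin, whose signal was not analysed here. All 3 libraries came from the same leukaemia model, so no normal B-cell sample was compared. The sources used here do not give the strain, the way Bcr-Abl was introduced or whether the culture was clonal. With 1 library per mark, no value below has a replicate error and no test between samples was made.

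H3K4me3 is placed at promoters by the SET1 and MLL families of methyltransferases, and its strongest peaks usually lie at promoters rich in CpG dinucleotides. H3K27ac is written mainly by the acetyltransferases p300 and CBP and removed by histone deacetylases, and it is found at active promoters and enhancers. The mark is exclusive with methylation of the same lysine by Polycomb repressive complexes on any one histone tail. Promoters that carry strong H3K4me3 usually also carry H3K27ac, so sites where the first is strong and the second is weak are the less usual combination.

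The files give peak positions on the mouse build mm9 and no gene names, and no mm9 annotation or sequence was used here. The peaks are therefore named by position, were not assigned to genes, and their bases are not shown. For the same reason the markers of the B lineage were not checked.

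Scores were assigned by the authors and are compared here only within a list. In the H3K27ac list 13197 of 29468 peaks (44.8%) scored below 500, so the H3K27ac of the members lay in the lower part of that list. In the H3K4me3 list 9042 peaks were tied at exactly 3100 and 75 scored more. The highest score was 3233.06 in both lists, which equals -10 times the log10 of the smallest positive double-precision number. If the score is such a transformed p-value, 3100 may stand for p-values too small to write, and peaks tied at 3100 may then outrank those above it. No header or label settles this, so a score above 3100 may mean a weaker peak than a tied one.

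Ceiling H3K4me3 peaks were set side by side in classes of H3K27ac. The 454 weakly acetylated peaks come first, then 3576 peaks with intermediate H3K27ac (highest score 500 to below 3100), then 5073 with strong H3K27ac (3100 or more). The remaining 14 had no H3K27ac peak. The classes are cut from the score, and peak width and coverage come from the same libraries, so these comparisons describe the classes and support nothing beyond that. All intervals are 95% intervals over peaks. They take peaks as independent and hold counting error only.

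At most weakly acetylated peaks H3K27ac was a short block that lay inside the H3K4me3 peak. In a pool of cells, weak H3K27ac in all cells and stronger H3K27ac in a few cannot be told apart. The summed H3K27ac width had a median of 1186 bp (interval 1140 to 1230 bp) at weakly acetylated peaks, 1916 bp (1897 to 1933 bp) at intermediate ones and 3133 bp (3090 to 3178 bp) at strong ones. H3K27ac covered a median of 67.7% of the H3K4me3 peak (interval 65.5 to 69.1%) in the weak class, 85.9% (85.5 to 86.2%) in the intermediate class and 94.6% (94.2 to 94.9%) in the strong class. In 382 of the 454 peaks (84.1%, interval 80.4 to 87.4%) all H3K27ac lay inside the H3K4me3 peak, against 49.6% of intermediate and 23.6% of strong peaks. Only 3 of the 454 (0.661%) had H3K27ac that reached past both ends, against 8.05% of intermediate and 29.3% of strong peaks. Fewer than 50% of the bases were covered at 79 of the weakly acetylated peaks (17.4%, interval 14.0 to 21.2%), at 0.503% of intermediate peaks and at 0.0788% of strong peaks.

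The block usually lay over the centre of the H3K4me3 peak, which a single block covering more than 50% of it must do. Only 79 of the 454 peaks were covered to less than 50%, so most of the share below follows from coverage. Whether the blocks lay nearer the centre than their width requires was not tested. H3K27ac covered the centre of the H3K4me3 peak at 437 of the 454 peaks (96.3%, interval 94.1 to 97.8%), compared with 99.5% of intermediate and 99.9% of strong peaks. The centres of the 2 marks were a median of 119 bp apart at weakly acetylated peaks (interval 102 to 130 bp), 114 bp at intermediate and 186 bp at strong peaks. Sorting the 2 ends of each peak by uncovered length gives a longer and a shorter bare end, which must differ by construction. The longer bare end had a median of 401 bp at weakly acetylated peaks (interval 369 to 424 bp), and the shorter one 170 bp (148 to 188 bp). At intermediate peaks the longer bare end was 245 bp and the shorter 0 bp. Which end faces a gene body was not analysed here, since the strand of transcription is not in the files.

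**Figure D1:**
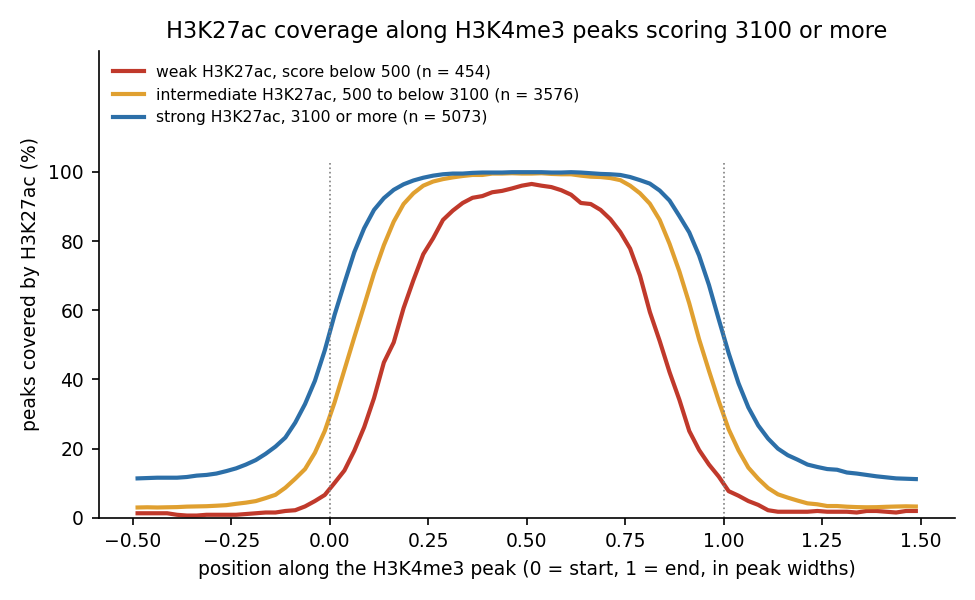
Share of ceiling H3K4me3 peaks covered by H3K27ac (y axis, percent) along the peak scaled to its own width (x axis, 0 is the start and 1 the end by coordinate, with flanks of 0.5 peak widths), for weakly acetylated, intermediate and strong peaks. At 0.25 of the width 78.5% of weakly acetylated peaks were covered, against 96.6% of intermediate and 98.6% of strong peaks. At the start the values were 8.37, 29.2 and 53.5% in that order of classes.

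The profile along the scaled peak was close to symmetrical by coordinate. At 0.75 of the width, 80.2% of weakly acetylated peaks were covered, and at the end 9.80%. Averaging over peaks of either orientation makes such a profile symmetrical, so it does not show whether single peaks were.

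Most members met a single H3K27ac peak. There were 35 (7.71%, interval 5.43 to 10.6%) that met several: 34 met 2 and 1 met 3. The same held for 5.23% of intermediate and 3.29% of strong peaks. Members with several H3K27ac peaks had a median H3K4me3 width of 2026 bp, against 1749 bp in those with 1. At 3 of the 35 the centre of the H3K4me3 peak fell in the gap between H3K27ac peaks. No H3K27ac peak of a member touched a second H3K4me3 peak (0 of 454, upper limit 0.809%). The share was 0.727% in the intermediate class (26 of 3576, interval 0.475 to 1.06%), from which the weak class did not separate, and 7.04% in the strong class.

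Within the weak class, coverage rose with the H3K27ac score. The 35 members with a highest score of 50 to 100 had a median of 40.8% covered (interval 34.8 to 43.5%), and the 88 members at 100 to 200 had 54.3% (51.0 to 61.2%). Medians were 67.6% for the 86 members at 200 to 300, 69.9% for the 111 at 300 to 400 and 76.6% for the 134 at 400 to 500. The lowest and the highest of these classes did not overlap in their intervals, but single peaks did. The summed H3K27ac width rose likewise, with medians of 740 bp in the lowest class and 1350 bp in the highest. The H3K4me3 width did not follow this order, with medians between 1730 and 1857 bp in the 5 classes. The share of members whose centre was covered was 74.3% in the lowest class (26 of 35, interval 56.7 to 87.5%) and 92.0% in the next. It was 98.8% at 200 to 300 and 100% in both classes above 300. This rise largely restates the coverage, since a single block over more than 50% of a peak must cover its centre.

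**Figure D2:**
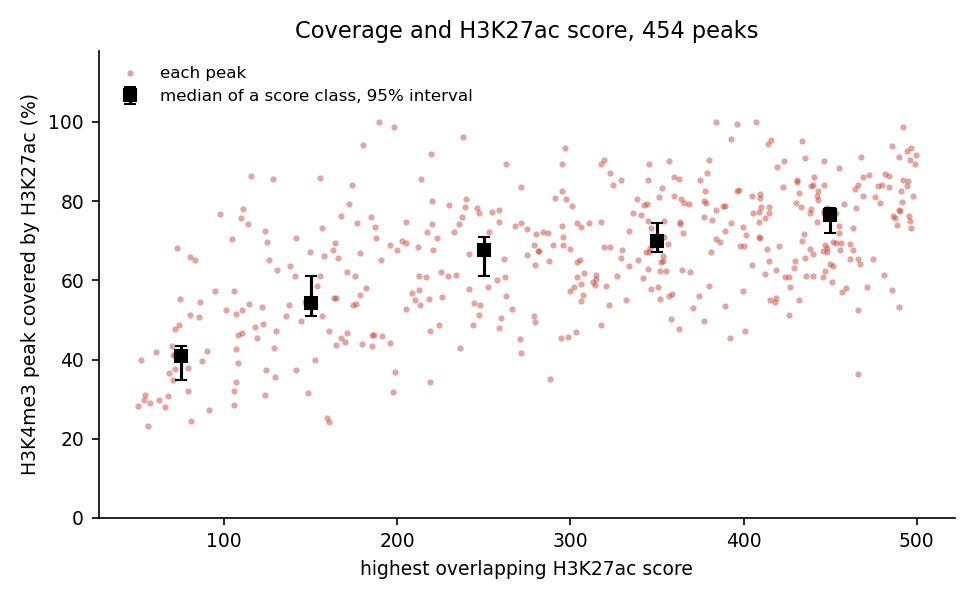
Percent of each weakly acetylated H3K4me3 peak covered by H3K27ac (y axis) against its highest H3K27ac score (x axis). Each point is 1 of 454 peaks. Squares are medians of score classes with 95% intervals, from 40.8% at scores of 50 to 100 up to 76.6% at 400 to 500.

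At H3K27ac scores of 100 and more, the weak H3K27ac peaks of the members were narrower than those of like score away from H3K4me3. This is not shown to be particular to members. Members held 490 of the 13197 H3K27ac peaks scoring below 500 (3.71%). At scores of 200 to 500 their median width was 1209 bp (interval 1155 to 1266 bp, 338 peaks). H3K27ac peaks of the same scores measured 1323 bp (interval 1294 to 1354 bp) at H3K4me3 peaks below 3100 and 1563 bp (1540 to 1580 bp) where no H3K4me3 peak was called. At scores of 100 to 200 the medians were 880 bp (833 to 997 bp) for members, 912 bp at lower H3K4me3 peaks and 1048 bp (1037 to 1060 bp) without H3K4me3. At 50 to 100 they were 655 bp (614 to 756 bp), 627 bp and 666 bp, and these intervals overlapped. Weak H3K27ac peaks at any ceiling H3K4me3 peak, of which the members' are a subset, had medians of 1162, 854 and 614 bp in the same 3 score ranges. Scores inside each range were not matched.

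The median width over all 18142 H3K4me3 peaks was 1807 bp. Members lay close to this value but were narrow beside the other ceiling peaks with H3K27ac. Their widths ran from 1094 to 4080 bp, with a median of 1771 bp (interval 1735 to 1799 bp) in the weak class, 2130 bp (2114 to 2147 bp) in the intermediate class and 3032 bp (2999 to 3063 bp) in the strong class. The 14 ceiling peaks without H3K27ac had a median of 1777 bp (interval 1464 to 3041 bp). Of the 195 ceiling peaks below 1500 bp, 70 were members (35.9%, interval 29.2 to 43.1%). Members were 16.1% of the peaks of 1500 to 2000 bp (268 of 1665) and 3.33% of those of 2000 to 2500 bp (84 of 2521). They fell to 0.849% of those of 2500 to 3000 bp and to 0.561% of the 2851 wider ones. A wider peak has more room to meet a high-scoring H3K27ac peak, and this part of the relation was not tested.

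**Figure D3:**
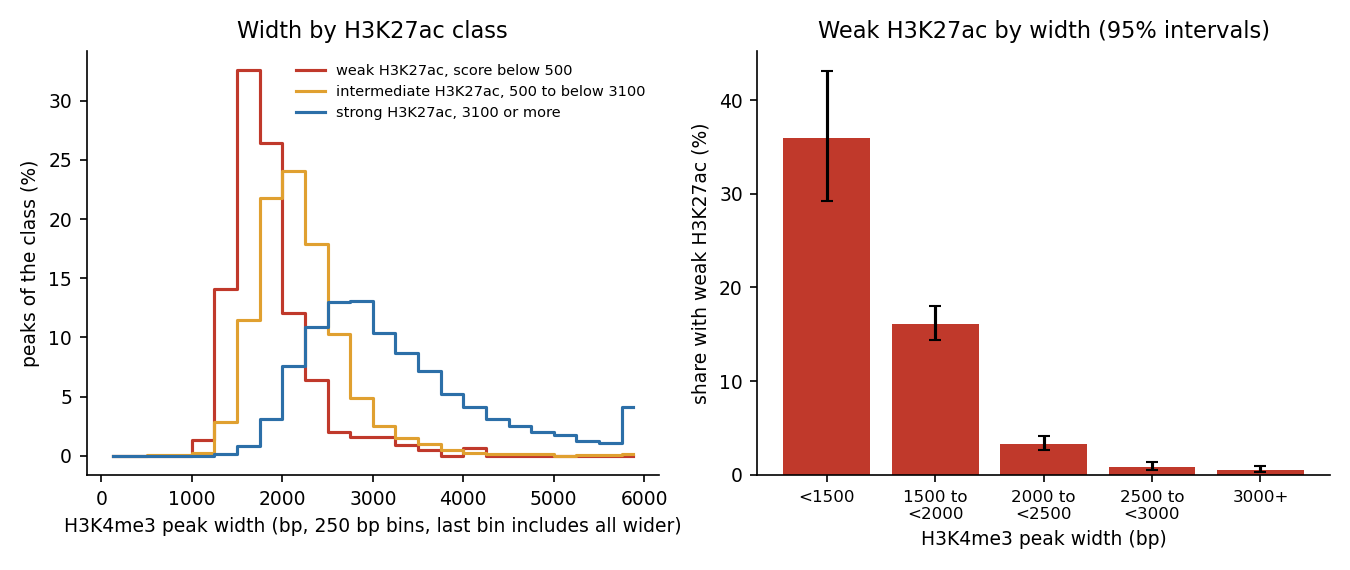
Left: distribution of H3K4me3 peak width (x axis, bp, bins of 250 bp) as percent of each class (y axis) for weakly acetylated, intermediate and strong peaks. Right: share of ceiling H3K4me3 peaks with weak H3K27ac (y axis, percent, bars) by width (x axis, bp), with exact 95% intervals. The share was 35.9% below 1500 bp and 0.561% at 3000 bp and more.

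The lower coverage was also seen among peaks of like width. At 1500 to 2000 bp the median coverage was 67.7% (interval 64.9 to 69.5%) for 268 weakly acetylated peaks, 86.9% (86.1 to 87.6%) for 1190 intermediate and 100% (99.1 to 100%) for 202 strong peaks. Among the 16 members of 3000 bp or more it was 54.6% (interval 31.1 to 73.0%), against 83.1% in 228 intermediate and 94.8% in 2604 strong peaks.

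The widest members did not share 1 pattern. The widest, 4080 bp on the unplaced contig chr1_random (268895 to 272974), was covered to 98.6% by a single H3K27ac peak of 4461 bp that scored 198.42. The next, 4074 bp on chromosome 13 (40825120 to 40829193), was covered to 25.2% by an H3K27ac peak of 1025 bp scoring 159.31 that missed its centre. A peak of 4002 bp on chromosome 7 (139788029 to 139792030) was covered to 73.0% at a score of 275.21. The first thus differed from the other 2 in having H3K27ac almost from end to end. The remaining 7 of the 10 widest measured 3240 to 3588 bp, were covered to between 24.3 and 69.4%, and lay on chromosomes 14, 13, 13, 10, 16, 5 and 2. Of the 10, 4 had no H3K27ac at their centre.

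The members with the least H3K27ac scored near the lowest value of that list, 50.01. The lowest was a 2042 bp H3K4me3 peak on chromosome 4 (122672480 to 122674521) with 1 H3K27ac peak of 577 bp scoring 50.07. It was followed by a 1545 bp peak on chromosome 17 (37182613 to 37184157) at 52.27 and a 1784 bp peak on chromosome 7 (104479962 to 104481745) at 53.76. The 10 lowest reached up to 67.45, and their coverage ran from 23.2 to 41.8%. When H3K27ac peaks below 100 were left out, 419 peaks remained in the weak class and these 10 were not among them.

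The smallest coverage, 23.2%, belonged to a 2874 bp peak on chromosome 12 (84827466 to 84830339), where an H3K27ac peak of 667 bp scored 55.87. A 3304 bp peak on chromosome 10 (94404993 to 94408296) was covered to 24.3% and a 3402 bp peak on chromosome 13 (23555286 to 23558687) to 24.5%. In all 3 the H3K27ac peak left the centre free. Of the 10 members with the smallest coverage, 5 were also among the 10 with the lowest H3K27ac score and 3 among the 10 widest.

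The limit of 500 cut a continuous range. Just inside it were members at 499.45 on chromosome 2 (26235096 to 26236633), covered to 91.7%, and at 499.06 on chromosome 4 (65265451 to 65267068), covered to 89.4%. Just outside were peaks at 500.32 on chromosome 3 (87420570 to 87422796), covered to 62.6%, and at 500.94 on chromosome 13 (100784473 to 100786558), covered to 64.2%. The 5 nearest peaks on the inner side scored 496.62 to 499.45, and the 5 on the outer side 500.32 to 502.96.

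Scores above 3100, which may rank below the tied ones, were more frequent in the weak class than in the intermediate and strong classes. H3K4me3 scored above 3100 at 30 of the 454 weakly acetylated peaks (6.61%, interval 4.50 to 9.30%). The same was seen at 24 of 3576 intermediate peaks (0.671%, 0.430 to 0.997%), at 17 of 5073 strong peaks (0.335%, 0.195 to 0.536%) and at 4 of the 14 without H3K27ac (28.6%, 8.39 to 58.1%). Within the weak class the share was 20% at H3K27ac scores of 50 to 100 (7 of 35) and 2.99% at 400 to 500 (4 of 134). The 30 members scored 3103.12 to 3230.05 and had a median width of 1602 bp, against 1782 bp in the 424 tied at 3100. Their median H3K27ac score was 172, against 323 in those tied, while the median coverage was 69.1 and 67.6%. The member with the highest number lay on chromosome 9 (64026475 to 64028174), with an H3K27ac score of 495.11. Of the 30, 7 lay on chromosome 2, which held 62 of all 454 members, and 6 on chromosome 7, which held 34. Of those 7, 4 belonged to the long run on chromosome 2 described below.

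Around the weakly acetylated peaks H3K27ac was sparser than around the intermediate and strong peaks. These neighbouring peaks were not used by the rule. The median gap to the nearest H3K27ac peak that did not touch the H3K4me3 peak was 20950 bp (interval 18575 to 24576 bp) in the weak class, 15594 bp (14772 to 16718 bp) in the intermediate class and 10472 bp (9916 to 11171 bp) in the strong class. The nearest other H3K27ac peak at 3100 or more was at a median of 76698 bp (interval 69251 to 88533 bp) in the weak class, 57678 bp (54054 to 61267 bp) in the intermediate and 41020 bp (39380 to 43556 bp) in the strong class. None of these intervals overlapped between these 3 classes. The 14 ceiling peaks without H3K27ac had medians of 20632 bp (interval 4943 to 58848 bp) and 71158 bp (16992 to 520448 bp), wide intervals that held those of the members, so the sparseness is not shown to be particular to the members.

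Counts within fixed distances gave the same order of these 3 classes, but not all separated the weak from the intermediate class. No other H3K27ac peak lay within 10 kb of 68.1% of weakly acetylated peaks (interval 63.6 to 72.3%). The share was 62.3% of intermediate (60.7 to 63.9%) and 51.2% of strong peaks, and the first 2 intervals overlapped. It was 57.1% (28.9 to 82.3%) of the 14 peaks without H3K27ac. No other H3K27ac peak lay within 100 kb of 48 weakly acetylated peaks (10.6%, interval 7.90 to 13.8%), 6.96% of intermediate peaks (6.15 to 7.85%) and 4.14% of strong peaks (3.61 to 4.72%). The same held for 2 of the 14 peaks without H3K27ac (14.3%, interval 1.78 to 42.8%). An H3K27ac peak scoring 500 or more lay within 10 kb of 84 weakly acetylated peaks (18.5%, interval 15 to 22.4%), 25.9% of intermediate and 33.7% of strong peaks. Among the 14 peaks without H3K27ac it did so for 2 (14.3%, interval 1.78 to 42.8%). H3K4me3 itself was less clearly sparse. The median gap to the nearest other H3K4me3 peak was 23857 bp at weakly acetylated peaks (interval 20473 to 27977 bp), 20816 bp at intermediate peaks (19771 to 21992 bp) and 17212 bp at strong peaks (16425 to 18051 bp). The first 2 of these intervals overlapped. How far the density of peaks of either mark accounts for the other was not tested.

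Among peaks of like width, the gaps of the weak and intermediate classes separated in 2 of 5 width ranges. At 1500 to 2000 bp the median gap was 20476 bp (interval 17455 to 26386 bp) in the weak class, 15153 bp (13737 to 16812 bp) in the intermediate and 9098 bp (6940 to 11730 bp) in the strong class. At 2000 to 2500 bp it was 26252 bp (interval 18538 to 34195 bp) in the weak class and 16943 bp (15100 to 18176 bp) in the intermediate class. The intervals of these 2 classes overlapped below 1500 bp (medians 17148 and 13913 bp), at 2500 to 3000 bp (30376 and 16107 bp) and at 3000 bp and more (20203 and 12336 bp). The most isolated member, on chromosome 4 (65265451 to 65267068), was 1163 kb from the nearest other H3K27ac peak and 809 kb from the nearest other H3K4me3 peak. Next came peaks on chromosome 16 (26581134 to 26582920) and on the X chromosome (119510267 to 119512251), 621 and 419 kb from other H3K27ac.

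Most weakly acetylated peaks stood alone among the ceiling peaks, while others formed pairs, runs of 3 and 2 long runs. Members were 4.98% of the ceiling peaks, so under random placement most would also lack a member as neighbour. The number standing alone was not compared with such a placement. A run is a stretch of consecutive ceiling H3K4me3 peaks along a chromosome that are all members, a definition made after the positions had been seen. Of the 454 peaks, 374 had no member as a direct neighbour, 36 formed 18 pairs and 9 formed 3 runs of 3. The other 35 fell into a run of 24 on chromosome 2 and a run of 11 on chromosome 4.

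The chromosome 2 run (174966346 to 177813651) spanned 2.85 Mb, and each of the 24 ceiling H3K4me3 peaks in it was weakly acetylated. The peaks were 1312 to 1976 bp wide, a narrow range around a median of 1628 bp, and their H3K27ac scores ran from 68.0 to 434 with a median of 234. Spacing between neighbouring centres was irregular, from 35.0 to 325 kb with a median of 91.3 kb. All 24 had H3K27ac over their centre, and coverage ran from 36.6 to 85.5%. The span also held 20 H3K4me3 peaks below 3100, with a median score of 2453, of which 13 touched H3K27ac. Of the 37 H3K27ac peaks in the span, 13 touched no member, and the rule held only the others below 500. None of the 13 scored 500 or more either, and the highest score in the span was 433.58. The nearest ceiling H3K4me3 peaks on either side, 667 kb before (174296840 to 174299684) and 1896 kb after (179709526 to 179712623), had H3K27ac scores of 3100.

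The chromosome 4 run (88405421 to 88452281) was compact and regular. Its 11 members lay within 46.9 kb, measured 1094 to 1609 bp and had H3K27ac scores of 141 to 484 with a median of 384. Coverage ran from 60.3 to 86.5%, and all 11 had H3K27ac over the centre. With 3 further H3K4me3 peaks that scored 2170.06, 2803.37 and 2836.93, the stretch held 14 H3K4me3 peaks. Of the 13 spacings between their centres, 12 were 2.80 to 3.02 kb with a median of 2.92 kb, and the other was 10.3 kb. Each of the 3 further peaks had H3K27ac too, at scores of 239.41 to 316.57. These were the only H3K27ac peaks in the stretch that the rule did not hold below 500. The next ceiling peaks outside it, 36.3 kb before (88364350 to 88369078) and 330 kb after (88782598 to 88785261), both had H3K27ac scores of 3100.

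**Figure D4:**
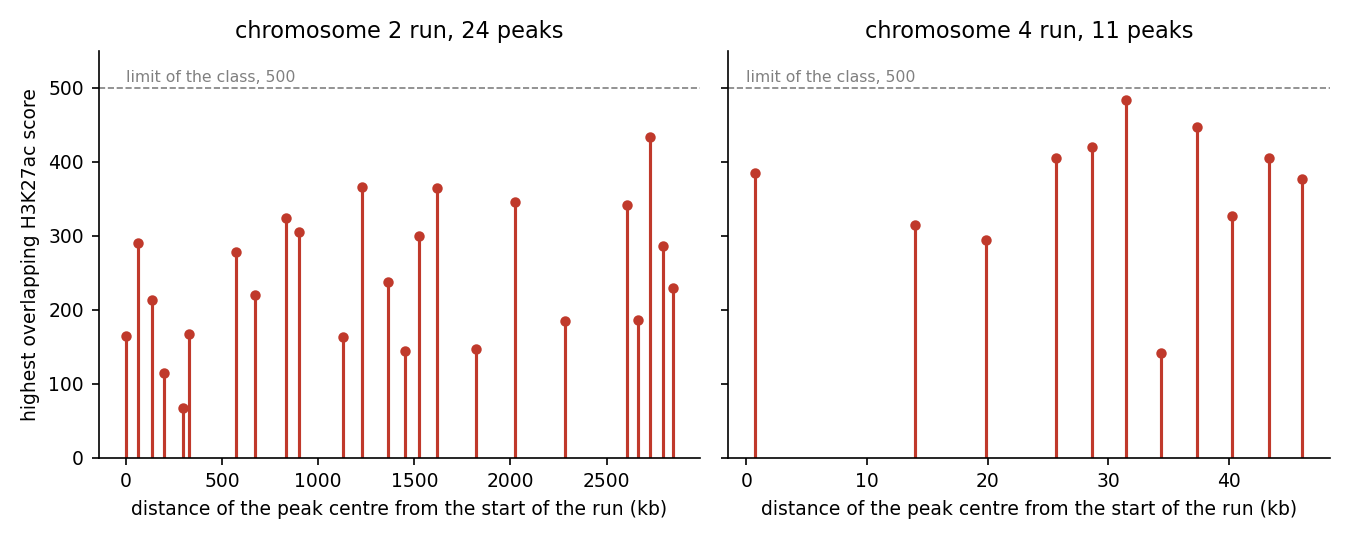
Highest H3K27ac score (y axis) of each weakly acetylated H3K4me3 peak against the distance of its centre from the start of its run (x axis, kb), for the 24 peaks on chromosome 2 and the 11 on chromosome 4. The dashed line is the class limit of 500. Positions are irregular over 2.85 Mb on chromosome 2 and, for the last 8 peaks, evenly spaced on chromosome 4.

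The sequence under both runs was not analysed here. Whether it is repeated in the genome, and how reads that fit several places were handled, was not tested, which limits what the spacing, these 35 members and the share on chromosome 2 can mean. Without the runs the other descriptions changed little. Over the remaining 419 members the median coverage was 67.5% (interval 65.2 to 69.1%), the median H3K4me3 width 1797 bp (1758 to 1830 bp) and the median gap to other H3K27ac 20416 bp (18032 to 23702 bp).

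With the runs included, members had another member as the nearest ceiling peak more often than intermediate and strong peaks did. How much of this grouping lay in the runs was not tested. For 61 of 453 weakly acetylated peaks (13.5%, interval 10.5 to 17.0%) the nearest other ceiling peak was also weakly acetylated, against 5.12% (4.42 to 5.89%) of intermediate and 3.69% (3.19 to 4.24%) of strong peaks. Without the 2 runs the share was 26 of 418 (6.22%, interval 4.10 to 8.98%), which overlaps the interval of the intermediate class. The runs are stretches of members only, so leaving them out had to lower this share. The overlap therefore does not show that grouping was confined to the runs. In bins of 1 Mb, 345 of the 1782 bins with a ceiling peak held a member, and 286 of these held 1. Besides the bins of the runs, those with 4 or more members were on chromosome 15 (76000001 to 77000000, 6 of 29 ceiling peaks), chromosome 13 (22000001 to 23000000, 5 of 9) and chromosome 5 (130000001 to 131000000, 4 of 19). The runs of 3 lay on chromosomes 13 (22008900 to 22037957), 15 (76647337 to 76710740) and 5 (73881095 to 74043041).

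Across chromosomes the members were spread widely, and chromosome 2, which holds the longest run, was highest among the autosomes and the X chromosome. They were 62 of its 751 ceiling peaks (8.26%, interval 6.39 to 10.5%), above the 4.98% over all chromosomes. Without the run the share there was 5.23% (38 of 727, interval 3.73 to 7.10%), and chromosome 4 likewise moved to 4.75% without its run, against 6.49% with it. Chromosomes 15 (6.18%), 5 (5.96%), 19 (5.42%) and 3 (5.36%) then stood above chromosome 2, with intervals that overlapped its own. Only chromosomes 2 and 4 had peaks left out, and these were all members, so both shares had to fall. The new order therefore does not compare like with like. The lowest shares of the autosomes were 2.51% on chromosome 9 (12 of 479, interval 1.30 to 4.34%) and 2.85% on chromosome 18 (7 of 246, 1.15 to 5.77%). Chromosome 11, with 748 ceiling peaks, had 24 members (3.21%, interval 2.07 to 4.74%). The intervals of chromosomes 9 and 11 lay below 4.98%, with no adjustment for the 20 chromosomes looked at. The X chromosome, with 12 of 251 (4.78%, interval 2.49 to 8.20%), did not stand apart. Unplaced contigs held 2 members among 21 ceiling peaks, and the Y chromosome held none among 2.

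**Figure D5:**
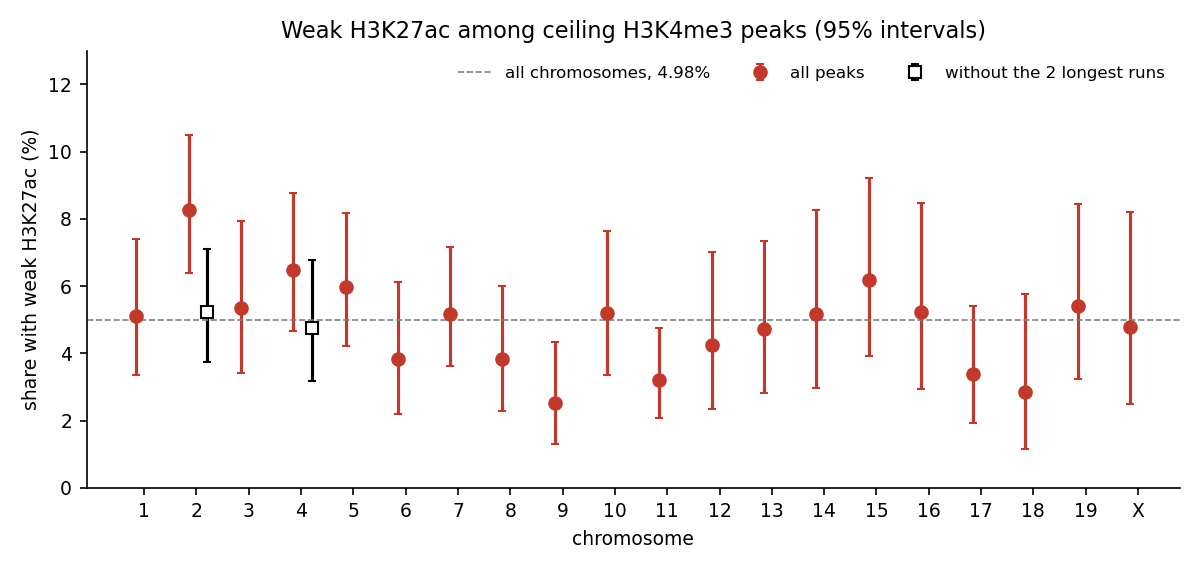
Share of ceiling H3K4me3 peaks with weak H3K27ac (y axis, percent) on each autosome and the X chromosome (x axis), with exact 95% intervals. Open squares leave out the 2 longest runs, which lie on chromosomes 2 and 4, and the dashed line is the share over all chromosomes, 4.98%. Chromosome 2 is highest at 8.26% with its run and stands at 5.23% without it. All peaks left out are members, so the open squares had to fall and are not comparable with the other chromosomes.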

How the data were processed

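MACS peaks on mm9 were deposited, per the submitters' processing notes. The sources used here do not give the MACS version, aligner, read filters or depth, so depth is unknown and no interval accounts for it. The deposited score of each peak is the authors' value and is undefined in headers and labels; 1 list exists per mark, from 1 library each, with no pooling. BED starts were raised by 1 for printing. Overlaps of at least 1 bp were computed in Python 3.11.15 (NumPy 2.4.6, pandas 2.3.3, SciPy 1.17.1), tested on simulated data and checked against bedtools 2.31.1, which gave the same 16099 overlapping pairs. For shares the 95% intervals are exact binomial ones (Clopper-Pearson); for medians they come from order statistics. Groups were taken from sample titles.

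The peak class, the lists and the comparisons were chosen with earlier results of these data known. Named regions followed a rule: the 10 widest members, the 10 with the lowest H3K27ac score, the 10 with the smallest coverage, those scoring above 3100, up to 5 on either side of the limit of 500, and the 5 most isolated. For each set the leading ones are printed. Runs and bins were singled out after seeing their positions. Alternatives varied both score limits, the overlap, the H3K27ac list and the chromosomes. Start sites, gene lists, base composition and motifs were planned but not analysed, as no mm9 annotation or sequence was used here.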

Additional observations from a re-analysis of the deposited data

How the results depend on the processing

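The weak class was compared with the other ceiling peaks carrying H3K27ac under 9 alternative settings, 8 planned and 1, without the 2 longest runs, added after seeing the data. In all 9 the members had narrower H3K4me3 peaks, lower coverage and a longer gap to other H3K27ac. The gap was measured to the full H3K27ac list in every setting. Settings that changed that list therefore altered only which peaks were compared, not the gap of a peak. Of 37 alternative values for the main descriptions, 29 stayed inside the interval of the reported value and 8 lay outside it. Several settings kept nearly the same number of members, such as 454 with an overlap of 50% of the shorter peak. Counting H3K27ac within 1000 bp left 449. Such values could hardly leave the interval, and their direction could hardly change. Neither the count of 29 nor the shared direction therefore measures stability. The share of ceiling peaks in the class became 1.35% with an H3K27ac limit of 200, 12.2% with a limit of 1000 and 7.19% with H3K4me3 scores of 2000 or more. The median H3K4me3 width became 1858 bp with the limit of 1000 and 1703 bp with H3K4me3 scores of 2000 or more. The median coverage became 51.0% with the limit of 200 and 75% with that of 1000. These settings move the limit that defines the class. The share on chromosome 2 became 5.23% without the runs. Alternatives planned for start sites, gene lists, base composition and motifs were not run. No paired analysis was possible because each mark has 1 library. Depth is unknown, so how many weak H3K27ac peaks a deeper library would add cannot be said.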
